A study of Mus musculus with 8 samples.

Results

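The subunits of the respiratory chain and ATP synthase that are encoded in the nucleus were followed in RNA of mouse cells taken by FACS from embryoid bodies, balls of stem cells left to differentiate in suspension. The members are the gene symbols that begin with Nduf followed by a, b, c, s or v and a digit, with Uqcr, with Cox4 to Cox8 or with Atp5, leaving out the 6 symbols that end in -ps, which had a total of 2 counts. This rule used no measured value and gave 79 of 34536 symbols. By complex they are 35 genes of complex I, 8 of complex III, 20 of complex IV and 16 of complex V. The labels give 4 libraries of endocardial cells, the endothelial layer that lines the heart (A, C, E and G), and 4 of endothelial cells (B, D, F and H). For both groups the sources used here leave out the markers of the sort, the culture day, the cell line, the genotype and any treatment. Since no label states that libraries came from separate cultures, a p-value below speaks only of the spread among these libraries, which may be technical.

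Oxidative phosphorylation takes place in the inner mitochondrial membrane. Complex I takes electrons from NADH, complex III passes them by way of cytochrome c to complex IV, which reduces oxygen, and complex V, the ATP synthase, uses the proton gradient that complexes I, III and IV build. Most subunits of these complexes are encoded in the nucleus, and the mitochondrial genome encodes the remaining ones. Heart muscle relies heavily on this pathway, whereas endothelial cells are known for deriving much of their ATP from glycolysis.

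Total counts ran from 6677667 to 11369363 per library, so that a count of 0 allows up to 0.267 to 0.438 CPM, the value of 3 counts (counting error alone). CPM are counts relative to the TMM-scaled total of the library, on a common scale. Of the 79 members, 75 had enough counts to be tested. Endothelial marker genes summed to 1418 to 1892 CPM in the endocardial libraries and 439 to 896 CPM in the endothelial libraries, and edgeR called 8 of these 10 genes higher in endocardial cells. Pluripotency markers summed to 133 CPM in library E and 21.4 to 25.7 CPM in A, C and G, against 136 to 1013 CPM in the endothelial libraries, with the highest sum in F, and none of the 10 was at 0 in E. All 10 were lower in endocardial cells at an unadjusted p under 0.05, and edgeR called 2 of them. Heart muscle markers summed to 257 to 486 CPM in the endocardial and 212 to 393 CPM in the endothelial libraries, with 0 of 12 tested genes called by edgeR (6 at an unadjusted p under 0.05). Over all tested genes edgeR called 2.58%, with 14.6% at an unadjusted p under 0.05. Group names are those of the labels, and the libraries labelled endothelial had less endothelial and more pluripotency marker RNA. Library E stood apart in the members: they took 0.831% of its counts, against 0.544% to 0.633% in the other 7 libraries. In bulk RNA of sorted cells, fewer cells of a type and less RNA per cell cannot be told apart.

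Promoter windows of 5 members are shown because the results below turn on these genes: Ndufa8 had the smallest p, Cox7b the largest increase, Cox6b2 the largest decrease, Cox6b1 is the widely used counterpart of Cox6b2, and Atp5e had the largest excess in library E. Each is the 300 bases from 250 before to 50 after the start of the gene, 5′ to 3′ on the gene's strand, from RefSeq on build GRCm38.p6. They lie at chr2:36049289-36049588 on the minus strand for Ndufa8, chrX:106015450-106015749 on the plus strand for Cox7b, chr7:4753045-4753344 on the minus strand for Cox6b2, chr7:30626065-30626364 on the minus strand for Cox6b1 and chr2:174464052-174464351 on the minus strand for Atp5e. Capitals mark letters that match a motif of NRF1, which activates many genes of respiration (CGCANGCGC on either strand), or of ETS factors such as GABPA (CCGGAAG on either strand).
Ndufa8: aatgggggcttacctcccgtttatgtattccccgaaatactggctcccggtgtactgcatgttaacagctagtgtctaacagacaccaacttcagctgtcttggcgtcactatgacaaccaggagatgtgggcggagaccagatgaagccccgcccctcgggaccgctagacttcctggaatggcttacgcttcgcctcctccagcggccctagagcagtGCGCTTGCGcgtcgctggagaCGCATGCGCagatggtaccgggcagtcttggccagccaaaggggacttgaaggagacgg
Cox7b: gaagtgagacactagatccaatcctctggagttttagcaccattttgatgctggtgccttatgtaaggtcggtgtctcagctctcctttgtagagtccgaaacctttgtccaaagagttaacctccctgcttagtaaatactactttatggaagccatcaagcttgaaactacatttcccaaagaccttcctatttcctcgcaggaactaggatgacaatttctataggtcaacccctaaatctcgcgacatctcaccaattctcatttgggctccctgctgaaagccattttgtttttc
Cox6b2: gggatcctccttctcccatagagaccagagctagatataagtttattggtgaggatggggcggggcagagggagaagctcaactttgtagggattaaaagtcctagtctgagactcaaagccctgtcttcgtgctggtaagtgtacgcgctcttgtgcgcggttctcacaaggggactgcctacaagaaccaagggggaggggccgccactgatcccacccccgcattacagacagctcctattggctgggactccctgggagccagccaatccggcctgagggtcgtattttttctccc
Cox6b1: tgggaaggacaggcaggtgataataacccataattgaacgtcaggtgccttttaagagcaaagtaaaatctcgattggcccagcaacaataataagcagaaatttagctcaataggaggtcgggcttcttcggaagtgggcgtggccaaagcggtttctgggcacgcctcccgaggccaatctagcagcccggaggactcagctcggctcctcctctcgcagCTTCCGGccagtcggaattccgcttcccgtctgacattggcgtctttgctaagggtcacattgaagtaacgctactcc
Atp5e: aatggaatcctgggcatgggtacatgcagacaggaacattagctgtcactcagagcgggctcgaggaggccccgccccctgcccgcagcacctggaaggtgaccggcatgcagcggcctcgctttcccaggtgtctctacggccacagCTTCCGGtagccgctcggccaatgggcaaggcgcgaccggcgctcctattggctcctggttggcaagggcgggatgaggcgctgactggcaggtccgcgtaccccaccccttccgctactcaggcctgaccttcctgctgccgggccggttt

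The Ndufa8 window held 2 NRF1 matches, those of Cox6b1 and Atp5e 1 ETS match each, and those of Cox7b and Cox6b2 neither motif. Of the 75 tested members, 61 had a window. The NRF1 letters were in 21 of the 61 (34.4%), against 14.8% of the 10455 tested genes with a window and 7.12% of all 27025 genes with one. The ETS letters were in 14 (23.0%), against 19.2% of tested genes and 9.93% of all. The letters AANATGGCG, searched on both strands for the factor YY1, were in 10 (16.4%), against 5.73% of tested genes and 2.76% of all. At least 1 of the 3 motifs was in 38 of the 61 members (62.3%), against 34% of tested genes and 17.3% of all. By complex these were 12 of 13 members of V, 4 of 5 of III, 19 of 31 of I and 3 of 12 of IV. The share in complex IV (25%) was thus below that of tested genes. None of the 3 motifs is contained in another, though matches can share bases at their ends. A match is a description of the window and not a binding site, and the genes have 1.08 windows each among members and 1.28 among tested genes.

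No subunit gene passed the test for a difference between the libraries labelled endocardial and those labelled endothelial. edgeR's quasi-likelihood test with Benjamini-Hochberg adjustment over 13817 genes called 0 of 75 members, where it called 2.58% of all tested genes. The smallest adjusted p of a member in this edgeR test was 0.182. At an unadjusted p under 0.05 there was 1 member, Ndufa8, where 14.6% of all tested genes passed. DESeq2 and limma voom also called 0 members, where they called 6.22% and 6.96% of all tested genes. A fit that blocks on neighbouring letters (A with B and so on), a pairing that no label states, called 1 member, Cox6b2, and 8.71% of all tested genes. The fitted differences were small: the median log2 fold change was 0.18, with a median SE of 0.17, and 68 of 75 members lay above 0 (90.7%), against a median of 0.01 and 52.5% of all tested genes. That shift rested largely on library E. Without E the members' median was 0.01 and 40 of 75 lay above 0 (53.3%), against 0.00 and 50.4% of all tested genes, and 30 members turned their sign. By complex, 7 of 8 members of III and 14 of 16 of V lay above 0 without E, against 14 of 35 of I and 5 of 16 of IV. edgeR then called 0 members and 0.961% of all tested genes, with 1 member, Ndufa8, at an unadjusted p under 0.05 against 12.4% of all.

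Summed over all members, the levels were 5609 CPM in A, 6011 in C, 8262 in E and 6496 in G among the endocardial libraries. The endothelial libraries had 5517 CPM in B, 5618 in D, 6018 in F and 6272 in H. E was the highest of the 8, and the other 3 endocardial libraries lay within or close to the endothelial range. The means were 6595 ± 1169 CPM in endocardial and 5856 ± 352 CPM in endothelial libraries (SD, n = 4 each), a ratio of 1.13, which was 1.03 without E.

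**Figure D1:**
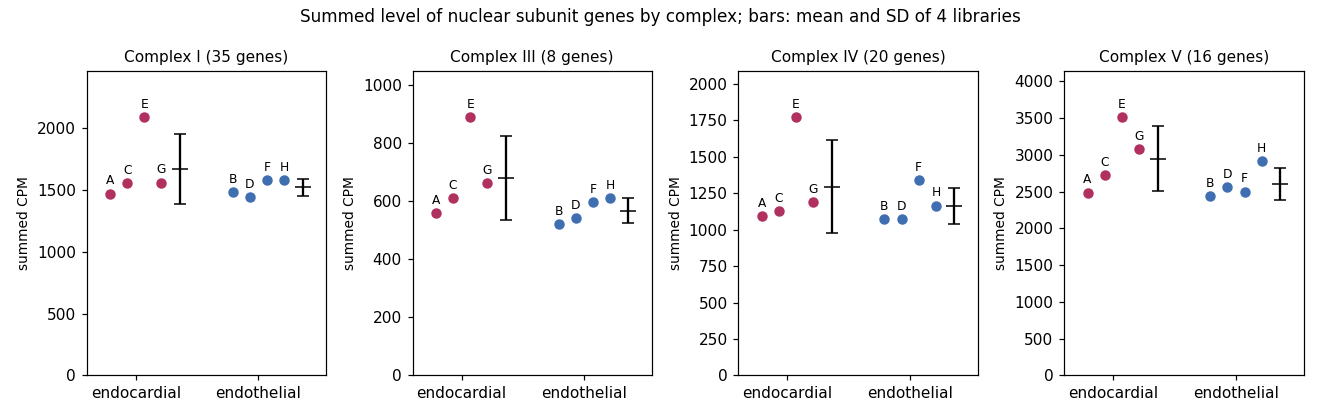
Summed CPM of the members of each complex (y axis, from 0) in the 4 endocardial libraries (left, red) and the 4 endothelial libraries (right, blue), with each library's letter and bars for the mean and SD of 4 libraries. Library E is the highest point in every complex, at 2090, 888, 1772 and 3511 CPM for complexes I, III, IV and V.

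Complex I, the NADH dehydrogenase, had 35 members, 7 core subunits that bind NADH, flavin and iron-sulfur clusters and 28 accessory subunits around them. All 35 were tested and 0 were called. Their summed level was 1472 CPM in A, 1554 in C, 2090 in E and 1561 in G, against 1484 CPM in B, 1446 in D, 1582 in F and 1579 in H. A, C and G lay inside the endothelial range and E above it. The median log2 fold change was 0.14, with 34 of 35 above 0, and -0.02 without E, with 14 of 35 above 0. The 95% intervals of the log2 fold changes lay between -0.45 and 0.88.

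The groups did not overlap for 4 members, all of complex I and all higher in endocardial cells, among them Ndufa8, Ndufb2 and Ndufv1. Over all tested genes 4.42% were separated in this direction and 5.33% in the other, where there was 0 of 75 members, so the members' count is near the background. Ndufa8 (chromosome 2, 36036326 to 36049406, build GRCm38) codes for an accessory subunit that faces the intermembrane space. It had 30.9, 36.3, 47.0 and 35.9 CPM in A, C, E and G, against 27.0, 28.6, 28.2 and 30.0 CPM in B, D, F and H. Every endocardial library was above every endothelial one, by the least in A and by the most in E. Its log2 fold change was 0.40 (SE 0.14, 95% interval 0.10 to 0.70, edgeR adjusted p = 0.182), and 0.26 without E (edgeR adjusted p = 0.363).

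Ndufb2, an accessory subunit of the membrane arm, had 20.3, 18.003, 24.7 and 18.8 CPM in A, C, E and G and 16.9, 13.1, 17.4 and 17.1 CPM in B, D, F and H. The lowest endocardial value was close to the highest endothelial one, and D was the low endothelial library (log2 fold change 0.34, SE 0.15, edgeR adjusted p = 0.344). Ndufv1, the core subunit that binds NADH, had 86.2, 80.7, 90.4 and 81.8 CPM in A, C, E and G and 76.1, 70.1, 76.5 and 75.0 CPM in B, D, F and H. The groups were apart with E close to A, and the difference was small (log2 fold change 0.19, SE 0.09, edgeR adjusted p = 0.374).

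Ndufs1, the core subunit with several iron-sulfur clusters, was the member of complex I in which E was lower than the mean of A, C and G, at 0.968 times. It had 124, 113, 111 and 106 CPM in A, C, E and G, against 115, 105, 99.1 and 104 CPM in B, D, F and H, with overlapping groups (log2 fold change 0.10, SE 0.09). Ndufa13, an accessory subunit also known as Grim19, had the lowest fitted difference of complex I, -0.09 (SE 0.15, edgeR adjusted p = 0.858). Its values were 56.3, 59.1, 73.4 and 52.8 CPM in A, C, E and G and 60.4, 55.2, 82.1 and 59.6 CPM in B, D, F and H, so that F was above E. The sum of the 7 core genes was 1.16 times as high in E as the mean of A, C and G, and that of the 28 accessory genes 1.46 times. The median log2 fold changes were 0.17 for the core and 0.13 for the accessory genes, and 0.06 and -0.05 without E.

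Complex III, the cytochrome bc1 complex, had 8 members, of which 8 were tested and 0 called. They summed to 559 CPM in A, 608 in C, 888 in E and 661 in G, against 522 CPM in B, 542 in D, 595 in F and 609 in H. E was above all other libraries, and G was above every endothelial library too. The median log2 fold change of complex III was 0.30, the highest of the 4 complexes, and 0.09 without E. The 8 members were all above 0, and all but Uqcrb stayed so without E. Uqcrh, the hinge subunit near cytochrome c1 (chromosome 4, 116066965 to 116075071), had 117, 144, 225 and 151 CPM in A, C, E and G, against 106, 121, 124 and 137 CPM in B, D, F and H. A lay inside the endothelial range and the other 3 above it (log2 fold change 0.39, SE 0.18, edgeR adjusted p = 0.385, and 0.16 without E).

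Uqcr11, a small subunit and the member of complex III with the smallest p, had 44.7, 49.1, 64.8 and 40.4 CPM in A, C, E and G, against 41.1, 40.0, 42.2 and 36.6 CPM in B, D, F and H. G lay inside the endothelial range (log2 fold change 0.32, SE 0.15, edgeR adjusted p = 0.368). Uqcrfs1, the Rieske iron-sulfur protein, had 37.4, 41.8, 68.6 and 55.5 CPM in A, C, E and G, against 36.9, 38.6, 40.1 and 44.01 CPM in B, D, F and H. The high values were E and G, and A and C lay inside the endothelial range (log2 fold change 0.35, SE 0.18, edgeR adjusted p = 0.431). The large core proteins had smaller differences, with log2 fold changes of 0.23 for Uqcrc2 (SE 0.16) and 0.09 for Uqcrc1 (SE 0.10). Uqcrc1 was 1.09 times as high in E as the mean of A, C and G, the least of the 8, and Uqcrq 1.83 times, the most.

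**Figure D2:**
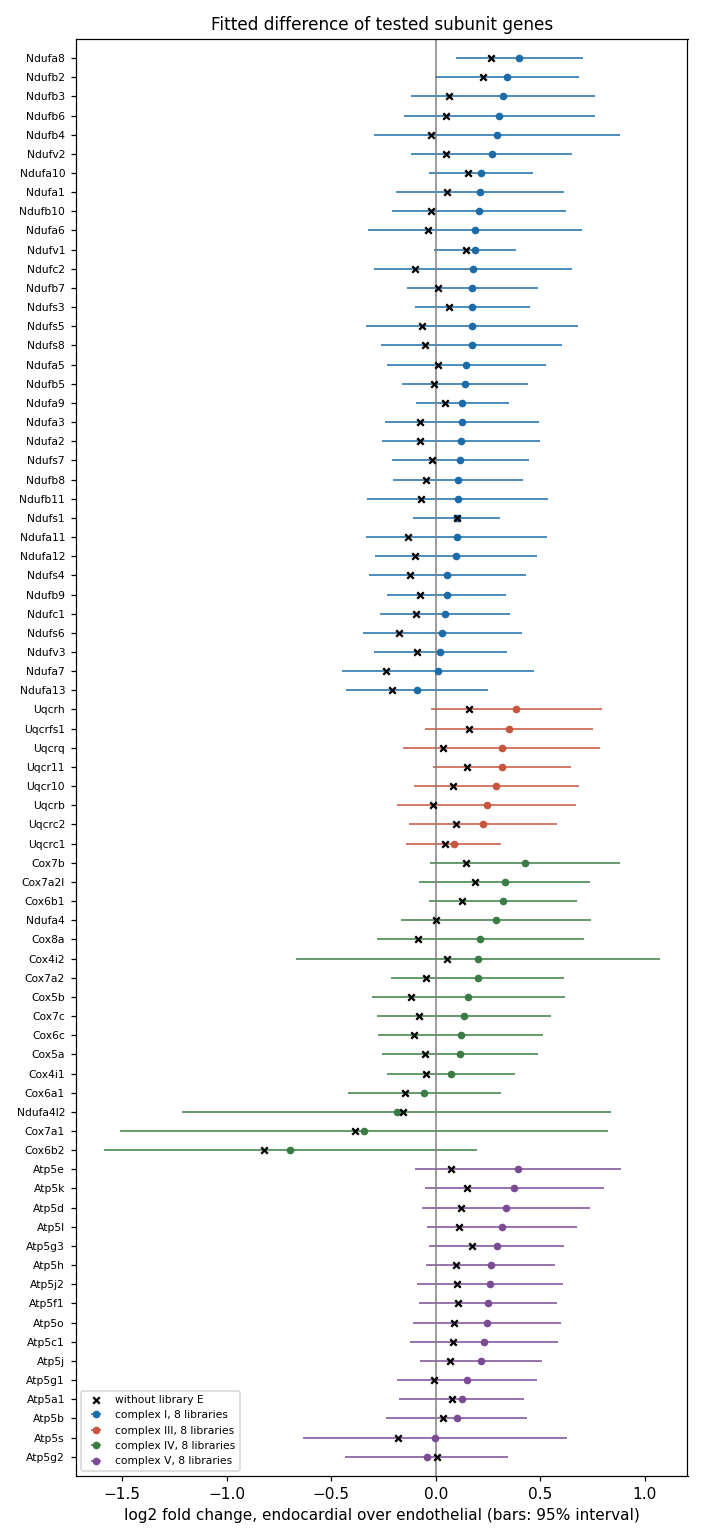
Fitted log2 fold change, endocardial over endothelial (x axis), of 74 tested members, ordered by complex and value, with bars for the 95% interval of the fit to 8 libraries and crosses for the value without library E. Most points lie right of 0 and most crosses close to 0, and Ndufa8 alone has an interval clear of 0 before adjustment.

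Complex IV, cytochrome c oxidase, had 11 widely used subunits and 9 tissue-restricted or alternative isoforms and relatives among the members. Of the 16 tested, 0 were called. The complex summed to 1093 CPM in A, 1127 in C, 1772 in E and 1192 in G, against 1073 CPM in B, 1072 in D, 1341 in F and 1166 in H. E was again the highest and F the next, and A, C and G lay inside the endothelial range. The median log2 fold change was 0.15, and -0.07 without E. The 11 widely used subunits had 10 values above 0, and 3 without E.

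Cox7b, a small subunit (chromosome X, 106015700 to 106022450), had the largest fitted increase of the 75 members. It had 76.8, 79.0, 142 and 77.2 CPM in A, C, E and G, against 62.6, 65.3, 80.3 and 70.9 CPM in B, D, F and H. A, C and G lay below F and above the other 3 endothelial libraries, and E stood alone (log2 fold change 0.43, SE 0.20, edgeR adjusted p = 0.386, and 0.14 without E). Cox6b1, which binds on the cytochrome c side, had 123, 139, 209 and 143 CPM in A, C, E and G, against 114, 123, 121 and 134 CPM in B, D, F and H (log2 fold change 0.32, SE 0.16, edgeR adjusted p = 0.404). Cox4i1, the most abundant member of complex IV in CPM, had 191, 202, 267 and 215 CPM in A, C, E and G, against 183, 189, 237 and 221 CPM in B, D, F and H. The groups overlapped throughout, and its log2 fold change was 0.08 (SE 0.14), and -0.05 without E.

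Among the alternative isoforms Cox6b2, known from testis, had the largest negative difference of the 75 members. Cox6b2 (chromosome 7, 4751792 to 4753094) had 48.7, 25.7, 42.2 and 20.1 CPM in A, C, E and G, against 62.0, 37.5, 93.6 and 27.6 CPM in B, D, F and H. F was the highest library and G the lowest, and the groups overlapped widely. The log2 fold change was -0.70 (SE 0.40, 95% interval -1.59 to 0.20, edgeR adjusted p = 0.493), and without F it was -0.33 (edgeR adjusted p = 0.830). With neighbouring letters as a block Cox6b2 was called lower, at -0.63 (SE 0.14, edgeR adjusted p = 0.0336). Over all alternatives its adjusted p ran from 0.0336 to 0.869. As a share of Cox6b2 plus Cox6b1 levels per kilobase of transcript it was 30.7%, 17.1%, 18.4% and 13.5% in A, C, E and G, against 37.8%, 25.5%, 46.4% and 18.7% in B, D, F and H. The pluripotency markers, which summed to 136, 207, 1013 and 230 CPM in B, D, F and H, were also highest in F, and their part in the Cox6b2 values was not tested.

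Cox4i2 and Cox7a1 were scarce. Cox4i2, an oxygen-responsive form of subunit 4, had 3.87, 4.81, 8.07 and 8.86 CPM in A, C, E and G, against 3.30, 6.13, 3.76 and 9.21 CPM in B, D, F and H. Its log2 fold change was 0.20 (SE 0.39), with overlapping groups and a sign that turned under limma voom (-0.08). Per kilobase it made up 1.62% to 4.14% of Cox4i2 plus Cox4i1. Cox7a1, the form of heart and skeletal muscle, had 1.42, 1.67, 1.94 and 2.25 CPM in A, C, E and G, against 1.25, 1.31, 5.42 and 1.196 CPM in B, D, F and H. The endocardial values were above 3 of the endothelial ones and below F, and the log2 fold change of -0.34 (SE 0.52) became 0.52 without F.

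Ndufa4l2, a relative of the subunit Ndufa4 that is induced by hypoxia, had 2.58, 5.13, 4.95 and 9.11 CPM in A, C, E and G, against 3.30, 3.797, 6.47 and 11.2 CPM in B, D, F and H (log2 fold change -0.19, SE 0.46). G and H were the highest of their groups, and the sign turned without A (0.02) or H (0.26). Cox7a2l, which helps to join complexes III and IV, had 65.6, 92.5, 123 and 110 CPM in A, C, E and G, against 63.6, 84.0, 81.6 and 82.2 CPM in B, D, F and H. A and B were the low libraries, the other 3 endocardial libraries were above all endothelial ones, and the log2 fold change was 0.33 (SE 0.18, edgeR adjusted p = 0.474). Of the 4 members too low to test, Cox6a2, the muscle form of subunit 6a, had 8 counts in E, 2 in F, 1 in B and 0 in the other 5 libraries. Cox7b2 and Cox8c had at most 3 counts in any library, and Cox8b, a muscle form of subunit 8, at most 4, so no difference was detectable at this depth.

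**Figure D3:**
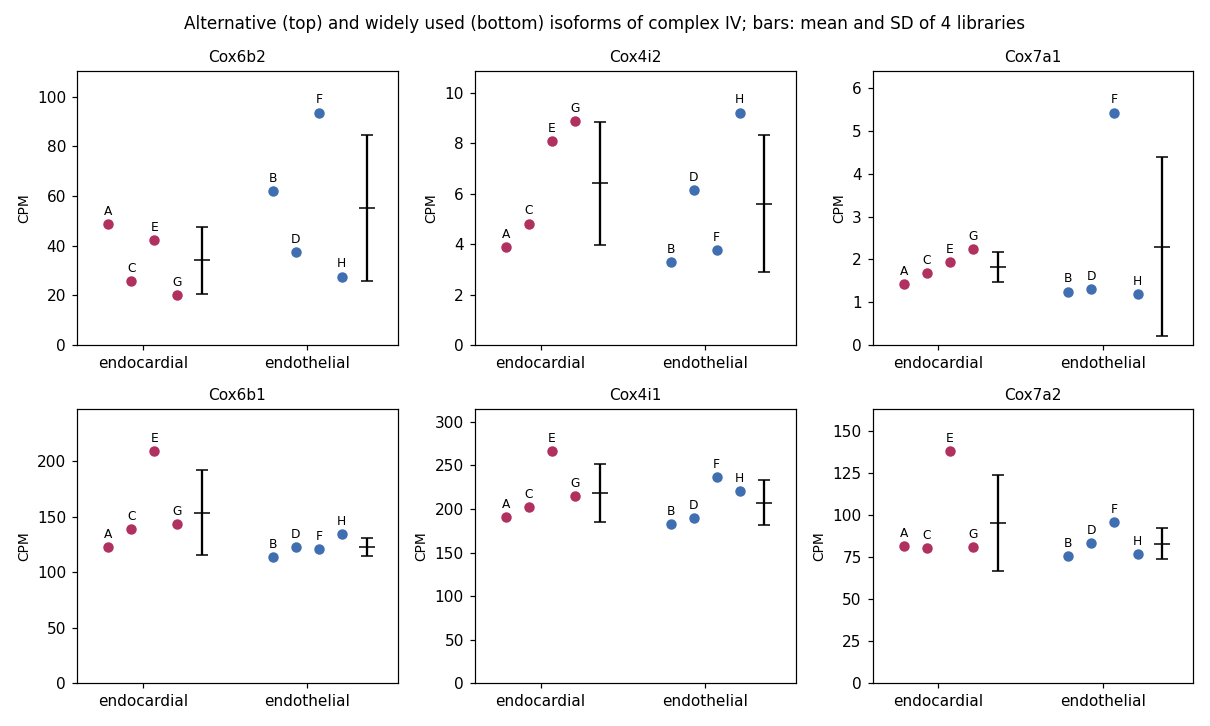
CPM (y axes, from 0, scaled for each gene) of 3 alternative isoforms of complex IV (top) and their widely used counterparts (bottom) in 4 endocardial (left, red) and 4 endothelial libraries (right, blue), with bars for the mean and SD. F is the highest library for Cox6b2 and Cox7a1, H for Cox4i2, and E for Cox6b1, Cox4i1 and Cox7a2.

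Complex V had 16 members, 5 of the catalytic F1 part, 10 of the membrane part Fo and the stalks, and Atp5s, a coupling factor that is not a subunit. All 16 were tested and 0 called. They summed to 2486 CPM in A, 2721 in C, 3511 in E and 3082 in G, against 2439 CPM in B, 2559 in D, 2500 in F and 2919 in H. E and G were above all endothelial libraries, and A and C inside their range. The median log2 fold change was 0.25, and 0.08 without E, with 14 of 16 members above 0 in either fit. The catalytic β subunit Atp5b (chromosome 10, 128083273 to 128090391) was the most abundant member, at 473 CPM per kilobase. Its levels were 806, 861, 1037 and 1044 CPM in A, C, E and G, against 759, 831, 875 and 1030.4 CPM in B, D, F and H. The groups overlapped, with E, G and H alike (log2 fold change 0.10, SE 0.15, edgeR adjusted p = 0.840). Atp5a1, the α subunit, was also highest in G, with 516, 559, 645 and 688 CPM in A, C, E and G, against 516, 540, 533 and 621 CPM in B, D, F and H (log2 fold change 0.12, SE 0.13).

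Atp5e, the ε subunit of the central stalk (chromosome 2, 174461072 to 174464105), had the largest excess in E of all members, 1.96 times the mean of A, C and G. It had 43.5, 52.5, 95.9 and 50.7 CPM in A, C, E and G, against 47.6, 46.9, 46.4 and 43.9 CPM in B, D, F and H. The 7 libraries other than E lay close together (log2 fold change 0.39, SE 0.22, edgeR adjusted p = 0.481, and 0.07 without E). Atp5k and Atp5l, small subunits of the membrane part, were also highest in E, with log2 fold changes of 0.38 (SE 0.19) and 0.32 (SE 0.16), and 0.15 and 0.11 without E.

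Subunit c, which forms the rotor ring, is made from 3 genes that code for the same mature protein. Atp5g3 had 192, 215, 270 and 214 CPM in A, C, E and G, against 174, 204, 148 and 204 CPM in B, D, F and H, so that E was high and F low (log2 fold change 0.29, SE 0.14, edgeR adjusted p = 0.407). Atp5g1 had 67.3, 63.5, 86.2 and 50.2 CPM in A, C, E and G, against 61.9, 58.1, 62.1 and 59.0 CPM in B, D, F and H (log2 fold change 0.15, SE 0.15, and -0.01 without E). Atp5g2 had 21.4, 22.4, 20.6 and 30.2 CPM in A, C, E and G, against 20.2, 31.2, 22.3 and 23.9 CPM in B, D, F and H (log2 fold change -0.04, SE 0.18). It was the member with the lowest ratio of E to the mean of A, C and G, 0.837. Per kilobase, Atp5g3 made up 77.1% to 84.8% of the 3 genes in the 8 libraries. That share rests on annotated median lengths of 718.5 bases for Atp5g3, 586 for Atp5g2 and 2675.5 for Atp5g1. It would be lower if the cells used a shorter Atp5g1 transcript. Reads that near-identical transcripts share, such as those of processed pseudogenes of subunit genes, are divided by the quantifier's model, so levels of single genes are uncertain to that extent.

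Levels per kilobase of transcript spread widely within complexes whose subunits are built into the enzyme in fixed numbers. After Atp5b the highest means were 296 CPM per kilobase for Uqcrh, 284 for Cox6b1, 282 for Cox4i1, 282 for Atp5g3 and 224 for Atp5a1. The highest member of complex I was Ndufa7, at 144 CPM per kilobase, and the lowest was Ndufb2, at 7.58. The lowest tested members overall were Cox7a1 at 4.69 and Ndufa4l2 at 6.23 CPM per kilobase. The lengths are medians over the annotated coding transcripts of a gene and not those the cells used, which bears on Ndufb2 and Atp5g1, whose annotated medians of 2413 and 2675.5 bases are far above the members' median of 730.

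**Figure D4:**
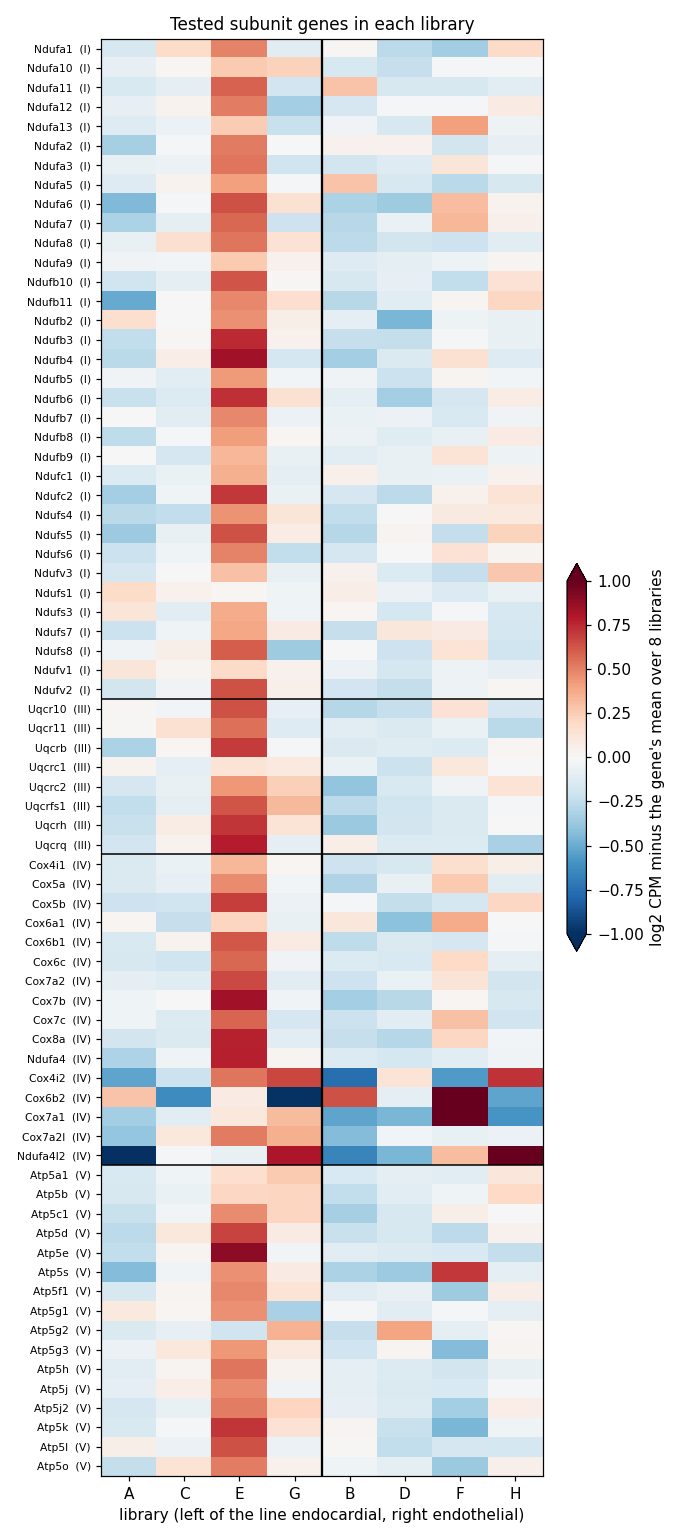
Level of each of 74 tested members (rows, complex in brackets) in the 4 endocardial libraries (left of the line) and 4 endothelial libraries (right), as log2 CPM minus the gene's mean over 8 libraries, with colours capped at -1 and 1. The column of library E is red in nearly all rows of all 4 complexes, and the isoform genes Cox4i2, Cox6b2, Cox7a1 and Ndufa4l2 follow other patterns.

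Library E had the highest value of the 8 in 63 of 75 members (84.0%), where it was the highest in 17.2% of all tested genes. By complex these were 32 of 35 in complex I, 8 of 8 in III, 11 of 16 in IV and 12 of 16 in V. The level in E was above the mean of A, C and G in 72 of 75 members, with a median ratio of 1.45 and a range of 0.837 to 1.96, and it was at least 1.5 times that mean in 32. The 12 members in which another library was highest included Ndufs1, Ndufa13, Cox6a1, Cox4i2, Cox6b2, Cox7a1, Ndufa4l2, Atp5a1, Atp5b, Atp5g2 and Atp5s. Over all tested genes the median of E minus the mean of A, C and G was 0.00 on the log2 scale, and over members 0.54.

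The excess in E was larger in short transcripts. Across the 75 members, length and the log2 difference of E from A, C and G had a Spearman correlation of -0.49, and across the 13628 tested genes with a length one of -0.41. These are descriptions across genes of the same 4 libraries, and genes are not independent replicates. The median log2 difference of members was 0.65 for the 42 of up to 750 bases, 0.50 for the 20 of up to 1500 bases and 0.21 for the 13 of up to 3000 bases. Other tested genes of the same lengths had medians of 0.48, 0.26 and 0.05, and those above 3000 bases, a class with no member, one of -0.11. E was the highest library in 37 of the 42 shortest members, against 55.0% of other genes of that length. The median length was 730 bases for members and 2759 for all tested genes. The part of length in the members' values was not tested.

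**Figure D5:**
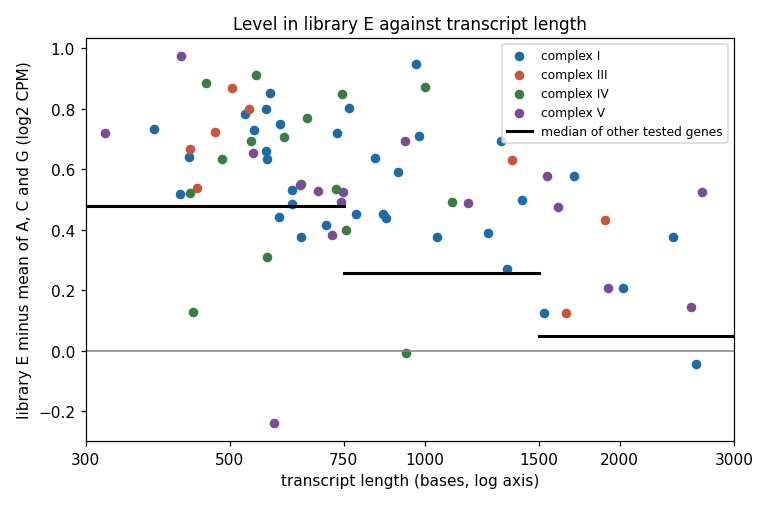
Log2 CPM in library E minus the mean of libraries A, C and G (y axis) against transcript length in bases (x axis, log scale) for 74 tested members, coloured by complex, with black lines for the median of other tested genes in 3 length classes, 0.48, 0.26 and 0.05. Members lie mostly above the line of their class, and both decline with length.

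Several lists of nuclear genes outside the rule were also often highest in library E. Of 9 nuclear subunit genes whose symbols the rule does not match, 8 were highest in E. Usmg5, a small ATP synthase subunit, had 58.7, 67.4, 112 and 60.8 CPM in A, C, E and G, against 54.9, 50.7, 50.4 and 62.2 CPM in B, D, F and H, so that E stood alone (log2 fold change 0.45, SE 0.20, edgeR adjusted p = 0.331). The succinate dehydrogenase gene Sdha had its highest value in G. Cytochrome c, Cycs, was at 36.5, 37.9, 62.9 and 38.2 CPM in A, C, E and G, against 31.7, 33.1, 37.1 and 37.0 CPM in B, D, F and H. Assembly factors were highest in E in 27 of 43 genes (median log2 fold change 0.13), with Bcs1l, which inserts the Rieske protein, at 0.35 and the heme A synthesis gene Cox10 at 0.30. Mitochondrial ribosomal proteins were highest in E in 67 of 78 genes (median 0.16), with Mrpl12 at 0.43 and Mrpl34 at 0.52. Cytosolic ribosomal proteins were highest in E in 77 of 83 genes (median 0.21, Rps27 at 1.33 and Rps13 at 0.27). They took 7.18% of the counts of E, against 3.46% to 5.12% in the other 7. Without E the median log2 fold changes were 0.008 for assembly factors, 0.035 for mitochondrial and 0.005 for cytosolic ribosomal proteins.

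The 13 subunits encoded in the mitochondrial genome went the other way in E. They took 2.85% of its counts, against 3.68% to 6.38% in the other 7 libraries, and 12 of 13 had their lowest value in E. The exception was mt-Atp6, lowest in G. Between the groups their median log2 fold change was -0.11, and 0.08 without E. The subunit mt-Nd6 had 636, 410, 287 and 565 CPM in A, C, E and G, against 616, 433, 711 and 444 CPM in B, D, F and H, with overlapping groups (log2 fold change -0.22, SE 0.26). In each of the lists of this and the preceding paragraph edgeR called 0 genes, with 0 mitochondrially encoded, 0 cytochrome c, 1 assembly factor, 1 outside the rule, 4 mitochondrial ribosomal and 4 cytosolic ribosomal genes at an unadjusted p under 0.05. Over all tested genes 2.58% were called and 14.6% were at an unadjusted p under 0.05.

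Among enzymes that feed the chain and regulators of mitochondrial biogenesis edgeR called no gene either. It called 2.58% of all tested genes, with 14.6% at an unadjusted p under 0.05, so no call in lists this short is near that share. Of 16 enzymes of the TCA cycle 0 were called (0 at an unadjusted p under 0.05), and 9 were highest in E. Their median was 0.12, and 0.07 without E, with Dld at 0.20 and Dlst at 0.18. Of 20 glycolytic genes 0 were called (1 at an unadjusted p under 0.05), and 5 were highest in E. Their median was 0.04, and -0.02 without E. The lactate dehydrogenase gene Ldhb had 25.3, 24.9, 50.9 and 26.6 CPM in A, C, E and G, against 39.8, 66.4, 179 and 69.4 CPM in B, D, F and H. F was the highest, E lay inside the endothelial range and the other 3 endocardial libraries below it (log2 fold change -1.47, SE 0.45, edgeR adjusted p = 0.136). The glucose transporter gene Slc2a3 had a log2 fold change of -0.45 (SE 0.21). Of 13 regulators 0 were called (0 at an unadjusted p under 0.05) and 3 were highest in E. The coactivator genes had log2 fold changes of 0.29 for Ppargc1a (SE 0.88, at most 30 counts in a library), 0.03 for Ppargc1b and 0.01 for Pprc1. The transcription factor genes had 0.09 for Nrf1 (SE 0.09), -0.02 for Gabpa (SE 0.13), 0.18 for Yy1 (SE 0.16), 0.12 for Tfam (SE 0.11), the packaging factor of mitochondrial DNA, and 0.66 for Myc (SE 0.32, edgeR adjusted p = 0.402).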

How the data were processed

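RNA of 8 samples was sequenced from a stranded mRNA library kit after extraction on a silica column, per the labels' protocols. The authors deposited estimated counts for gene symbols. Salmon, a transcript quantifier, DESeq2 and build mm10 are named per the submitters' processing notes, with no version. The counts are whole numbers with different totals per library, so they had been rounded and not scaled to a common total before deposit. No source used here gives the transcript set, a filter or whether the estimates were adjusted for transcript length.

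Counts were rounded to whole numbers, which changed nothing, and edgeR 4.0.16 (R 4.3.3) was used for the filter on low counts (filterByExpr, at least 10 counts and 15 in total), TMM scaling and the robust quasi-likelihood F-test of endocardial minus endothelial over all 8 libraries with no covariate. Benjamini-Hochberg adjustment ran over 13817 genes, and calls are at an adjusted p below 0.05. Alternatives were DESeq2 1.42.0, limma 3.58.1 voom with quality weights, other scalings and filters, a block of neighbouring letters and leaving out each library. The fits were tested on simulated data. The most alike pair of libraries, C (endocardial) and D (endothelial), had a chi-square per degree of freedom of 8.00. No pair was thus alike to within counting error, and each library was counted as a replicate. This value cannot show that libraries came from separate cultures, or whether neighbouring letters are paired. Lengths and gene coordinates (1-based) are from GENCODE M21, which held all 79 members, and promoter windows from RefSeq.

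The members, lists and naming rule were chosen with earlier results of these data known. The rule names, in each complex, the 3 members with the smallest p, the 2 most abundant, the largest increase and decrease, all complex IV isoforms, the subunit c genes, 8 regulators, and in each other list called genes and the 2 with the smallest p. Uqcrb, Uqcrq, Sdha, Ndufa7, Cox6a1 and Cox7a2 were named after their values were seen, as were the members in which E was not the highest library. Values of 1 tested member are not reported here, and it is left out of the plots of single members.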

Additional observations from a re-analysis of the deposited data

Results flagged for a closer look

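Of 64 groups of 4 libraries examined, for 27 named members and the sums, 7 had a library far from the other 3, with a gap to its nearest neighbour that is a larger part of the group's whole range than Dixon's critical value for 4 samples at the 95% level. Chance gives about 1 in 20 for independent groups not chosen by their values. These groups overlap, since named members are part of the sums, and many members were named by their values, so that rate does not apply to them. The sums of all members and of complexes III and V had no such library. In 4 of the 7 that library was E among the endocardial libraries. The gap was 0.856 of the range for the summed CPM of complex I and 0.854 for that of complex IV. For the gene Cox7b it was 0.966 and for Atp5l 0.869, again with E on top.

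The other 3 were in endothelial libraries. F was high in Cox7a1, at 5.42 CPM with a gap of 0.972 of the range. B was low in Cox7a2l, at 63.6 CPM with a gap of 0.882. D was low in Ndufb2, at 13.1 CPM with a gap of 0.867.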

How the results depend on the processing

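The number of members called was 0 under all alternatives but the block of neighbouring letters, where it was 1 (Cox6b2). Over all genes the number called was 356, and it was 860 with DESeq2, 961 with limma voom, 1204 with that block, 104 at an adjusted p below 0.01 and 135 (without E) to 457 (without B) when a library was left out. Without E and F together, an alternative chosen after seeing the data, it was 228, with 0 members and a members' median of 0.03. The members' median of 0.18 ranged from 0.01 (without E) to 0.24 (without A). Without E the median of complex IV was -0.07 and that of complex III 0.09. Signs of named members turned, under limma voom, for Cox4i2 (-0.079), Cox7a1 (0.24), Ndufa13 (0.019) and Ndufa4l2 (0.096), and without E and F Cox4i2 (-0.097) and Cox7a1 (0.49). Leaving out a library, the log2 fold changes ranged from -0.0077 to 0.27 for Atp5g1, -0.17 to 0.097 for Atp5g2, -0.046 to 0.13 for Cox4i1, -0.56 to 0.52 for Cox7a1, -0.21 to 0.032 for Ndufa13 and -0.53 to 0.26 for Ndufa4l2. The causes were not tested. No label pairs libraries across the groups, so the block of neighbouring letters is a pairing that no label states. Genes at a few CPM, such as Cox7a1, are limited by depth.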

Other observations

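Between libraries of neighbouring letters, the members' median log2 ratio was 0.0007 for A over B, 0.13 for C over D, 0.52 for E over F and 0.06 for G over H, with 38, 59, 68 and 46 of 75 members higher in the endocardial library, against 50.4%, 51.9%, 49.9% and 52.9% of all 13817 tested genes. Higher in all 4 comparisons were 23 members, against 17% of all tested genes, and lower in all 4 was Cox6b2 alone, against 16% of all tested genes.

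Epithelial markers had 2 of 7 and neural markers 2 of 6 tested genes called lower in endocardial cells by edgeR. Of 3 tested endoderm markers edgeR called 1, Sox17, higher. All 3 were at an unadjusted p under 0.05, with 2 log2 fold changes above 0 and 1 below. The endoderm sums overlapped, at 12.1 to 37.1 CPM in endocardial and 7.89 to 18.9 CPM in endothelial libraries. Of 12 erythroid and blood genes and 8 smooth muscle and mesenchyme genes 0 were called by edgeR (1 each at an unadjusted p under 0.05). The erythroid sum was 415 to 1561 CPM in endocardial and 252 to 2601 CPM in endothelial libraries, with the highest values in A and B. Skeletal muscle markers summed to 12.7 to 14.2 CPM in endocardial and 10.01 to 14.7 CPM in endothelial libraries (0 of 2 tested genes called by edgeR, 0 at an unadjusted p under 0.05). The shares over all tested genes were 2.58% called by edgeR and 14.6% at an unadjusted p under 0.05.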
